A study of Mus musculus with 28 samples.

Results

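The genes described here encode the subunits of the mitochondrial respiratory chain and of ATP synthase. They were taken by gene symbol: names beginning with Ndufa, Ndufb, Ndufc, Ndufs or Ndufv (the Ndufaf assembly factors left out), Uqcr, Cox4 to Cox8, Atp5, mt-Nd, mt-Co, mt-Atp or mt-Cytb, together with Sdha, Sdhb, Sdhc, Sdhd, Cyc1 and Cycs. The rule found 98 genes, and 97 of them reached a value of 1 or more in 5 or more libraries, out of 13495 genes in the whole table that met this filter. Of these 97, 84 lie in the nucleus and 13 on the mitochondrial genome, which are all of the proteins that genome encodes. By complex, the nuclear members are 39 for complex I, 4 for complex II, 9 for complex III, 14 for complex IV and 17 for complex V, plus cytochrome c. The mitochondrial members are 7 for complex I, 1 for complex III, 3 for complex IV and 2 for complex V. The only member below the filter was Cox4i2, an isoform induced by low oxygen in lung, which reached 1 in 0 libraries. Closest inside it was Cox6a2, a heart and muscle isoform, which reached 1 in 10 libraries. Some names bring in relatives that are not textbook subunits: Atp5s is a coupling factor-like assembly protein, Cox7a2l joins complexes into supercomplexes, Ndufb1-ps is annotated as a pseudogene in name, and Ndufa4 is now assigned to complex IV.

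Transcripts were measured in whole-kidney RNA of male mice by bulk RNA-seq. The control groups were db/m mice with both kidneys left in place (intact), at 26 weeks (n = 5) and at 35 weeks (n = 6), which carry 1 db allele of the leptin receptor gene beside a normal one and are lean. The disease groups were db/db mice, which have no normal copy of this gene and are obese and diabetic, after removal of 1 kidney (uninephrectomy, Unx), at 26 weeks (n = 12) and at 35 weeks (n = 5, replicates 1, 2, 3, 5 and 6). Every db/db mouse was operated and every db/m mouse was intact, so genotype and surgery cannot be told apart. Library or sequencing batches are not given in the labels, so age and batch cannot be told apart either. The labels do not say that every library comes from its own animal, and the p-values therefore measure the spread between these libraries, which may be technical.

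Complexes I to IV pass electrons from NADH and succinate to oxygen. Complex I (NADH dehydrogenase) and complex II (succinate dehydrogenase, also an enzyme of the citric acid cycle) reduce ubiquinone, complex III hands the electrons to cytochrome c, and complex IV (cytochrome c oxidase) gives them to oxygen. Complexes I, III and IV pump protons, and complex V (ATP synthase) uses the proton gradient to make ATP. Proximal tubule cells, the main cell type of the kidney cortex, reabsorb most of the filtered salt and glucose and meet this work almost entirely by oxidative phosphorylation.

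Estimated depth was 21600000 to 30600000 counts per library, rounded and read from the steps between low values. On the second principal component, which held 9.17% of the variance, db/db Unx replicates 3, 5 and 6 of 35 weeks stood apart from the other 25 libraries. For members described below, differences called at 35 weeks that lost their call or moved by over 1.5 times without these 3 are given both ways. All 15 proximal tubule markers were measured, and their summed value was 36173 to 40357 in db/m against 29163 to 38189 in db/db Unx at 26 weeks, and 34262 to 39017 in db/m at 35 weeks. In db/db Unx at 35 weeks it was 33631 and 35490 in replicates 1 and 2 and 29110, 29732 and 29510 in replicates 3, 5 and 6. The summed value of 10 macrophage markers was 248 and 152 in replicates 1 and 2 and 617, 509 and 497 in replicates 3, 5 and 6, against 136 to 227 in db/m of that age. The marker sums of the distal convoluted and connecting tubule, also rich in mitochondria, differed by 25.4% at 26 weeks, with no overlap between the groups, and by 32.2% at 35 weeks, with overlap. Those of principal cells differed by 65.8%, with no overlap, and 31.9%, with overlap. The thick ascending limb, rich in mitochondria as well, had 5 of 8 markers higher and 2 lower at 26 weeks and 1 higher and 3 lower at 35 weeks, with sums that differed by -5.53% and -23.6% and overlapped. Of the 15 proximal tubule markers 4 were higher and 8 lower at 26 weeks, and 3 higher and 6 lower at 35 weeks. The fibroblast and pericyte sum differed by 26.9% at 26 weeks, with overlap, and by 65.3% at 35 weeks, with no overlap. The part of cell composition in the results below was not tested, and in bulk tissue fewer cells of a type and less RNA per cell cannot be told apart.

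The first question was which subunit transcripts differ between the db/db Unx and db/m kidney at each age. Calls were made with limma at an adjusted p under 0.05 over all 13495 genes, on the log2(value + 1) scale, which understates the change of genes with values near 1. At 26 weeks 16 of 97 members were higher in db/db Unx (16.5%), where 17.2% of all genes were, and 9 were lower (9.28%), where 17.7% of all genes were. At 35 weeks 38 members were higher (39.2%, against 15.9% of all genes) and 10 were lower (10.3%, against 16.4%). All 16 members higher at 26 weeks were among the 38 higher at 35 weeks, and 7 members were lower at both ages. Of all genes, 1348 of the 2318 higher at 26 weeks were also higher at 35 weeks, and 1667 of the 2395 lower were also lower. Groups that did not overlap at all were found for 5 higher and 3 lower members at 26 weeks, as for 5.11% and 7.68% of all genes, and for 15 higher and 3 lower members at 35 weeks, as for 7.84% and 10.3% of all genes. The changes were small: the median log2 difference of the 84 nuclear members was 0.03 at 26 weeks and 0.11 at 35 weeks, beside 0.02 and 0.01 over all genes tested. The median of the 13 mitochondrial members was -0.04 at 26 weeks and -0.09 at 35 weeks. Without replicates 3, 5 and 6 of db/db Unx at 35 weeks, 50 members were higher and 2 lower at that age. Of all 13495 genes 1132 were higher and 1275 lower in that fit, beside 2148 and 2209 with every library. The medians were 0.24 for nuclear and 0.11 for mitochondrial members.

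Quantile normalization and scaling to equal totals, of all or of nuclear genes, took away most lower calls and none of the higher ones, and they added higher calls. Median-of-ratios scaling changed less: 108 results of members named singly stayed on their side of the threshold and 2 lost a call. Under each of 5 scalings tried, all 16 members called higher at 26 weeks and all 38 called higher at 35 weeks were called higher. Only Cycs and Ndufa4 at 26 weeks, and Cycs and Ndufs1 at 35 weeks, were called lower under all 5. Scaling to equal totals moved the median of all genes at 26 weeks from 0.02 to 0.11, and the share of called genes that were higher from 49.2% to 68.5% at 26 weeks and from 49.3% to 62.3% at 35 weeks. The median of nuclear members moved with it to 0.13, which is close to that new median of all genes. Under quantile normalization the nuclear median at 26 weeks was 0.18 and 61 members were called higher, with the median of all genes at 0.0068. Of all 13495 genes 2346 were called higher there, beside 2318 as deposited.

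**Figure D1:**
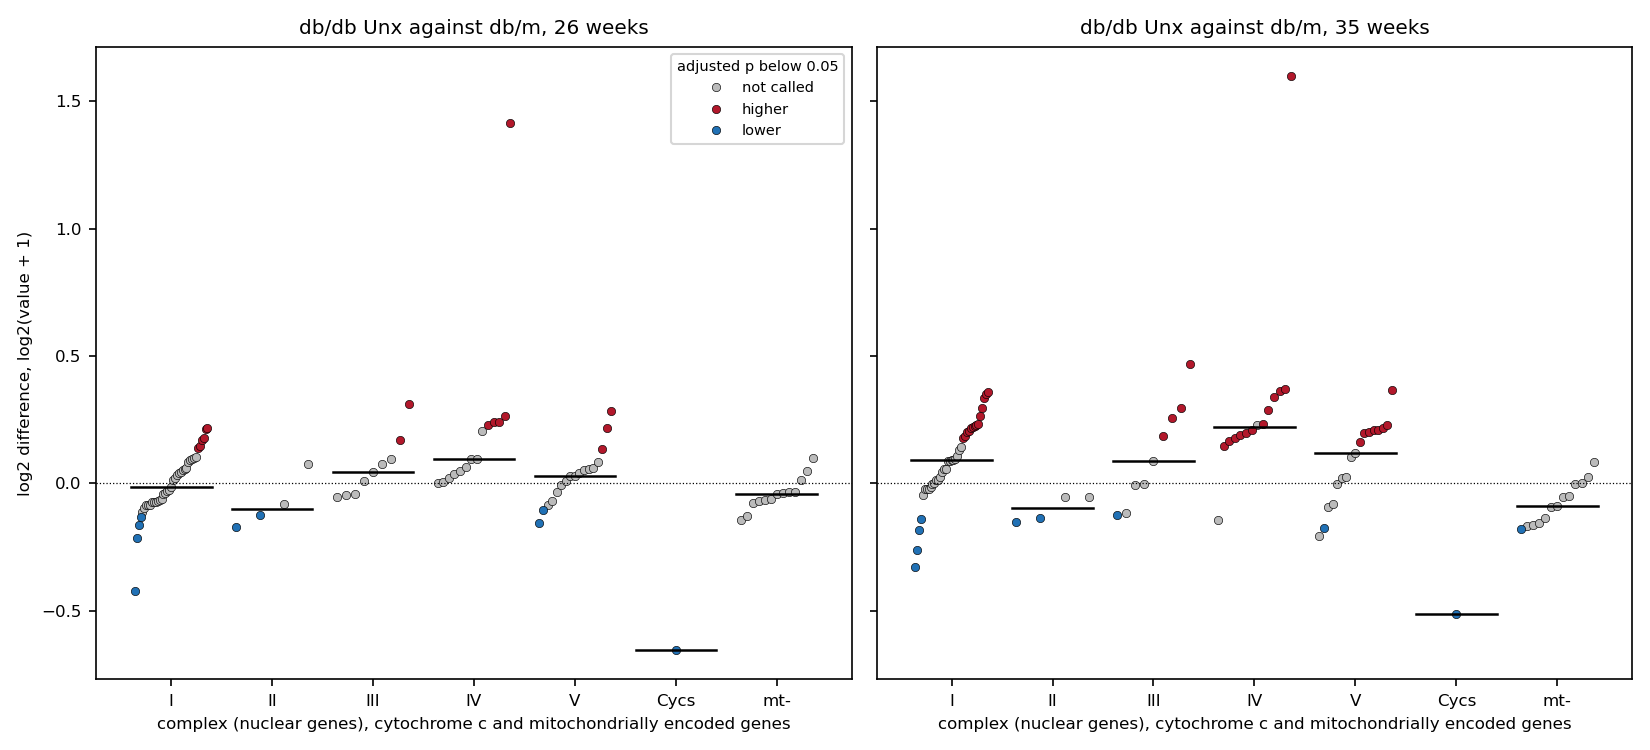
Log2 difference of each kept member between db/db Unx and db/m at 26 weeks (left) and 35 weeks (right), by complex for nuclear genes, with cytochrome c (Cycs) and the 13 mitochondrially encoded genes (mt-) apart; each point is a gene, coloured by its call at an adjusted p below 0.05, and bars are medians. In complex IV, with Ndufa4 counted in complex I by its name, 5 of 14 nuclear members were higher at 26 weeks and 12 at 35 weeks. None of these 14 was lower, while Cycs lies lowest at both ages. Most of the other lower calls were lost or changed sign under quantile normalization or scaling to equal totals.

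Cytochrome c was the member furthest below its db/m level at both ages. Cycs (ENSMUSG00000063694, chr6:50562563-50566538, minus strand, build GRCm38) encodes the somatic cytochrome c, the small soluble carrier between complexes III and IV that also triggers apoptosis when it leaves the mitochondrion. At 26 weeks its values were 726, 762, 799.9, 842 and 902 in the 5 db/m libraries and from 456 to 587 (median 505) in the 12 db/db Unx libraries. The ranges were far apart, and the log2 difference was -0.66 ± 0.06 (adjusted p 5.79e-12). At 35 weeks the values ran from 580.1 to 668 (median 633) in the 6 db/m libraries, 513 and 488 in db/db Unx replicates 1 and 2, and 404, 399 and 416 in replicates 3, 5 and 6. All 5 db/db Unx libraries lay below all 6 db/m libraries, with a log2 difference of -0.51 ± 0.06 (adjusted p 4.58e-08) and of -0.33 (adjusted p 0.00154) without replicates 3, 5 and 6. Over the 5 scalings the difference ranged from -0.66 to -0.47 at 26 weeks and from -0.51 to -0.31 at 35 weeks. Cyc1, the membrane-bound cytochrome of complex III that passes electrons to it, averaged 697 ± 21.3 in db/m against 702 ± 30.3 in db/db Unx at 26 weeks (SD) and was not called at either age (adjusted p 0.896 and 0.943). The ratio of 2 genes' deposited values within a library does not change with a scaling factor per library. It is not corrected for length, so it serves to compare groups and not genes. For Cycs to Cyc1 it was 116 ± 7.11% in db/m against 72.9 ± 4.60% in db/db Unx at 26 weeks, and 91.7 ± 4.71% and 64.7 ± 5.46% at 35 weeks, with no overlap between the groups at either age.

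The start regions of Cycs, which was lower, and of Cox6a1 and Cox6b2, which were higher, are shown to set the member with the lowest difference beside members of complex IV that were higher. They are the 250 bases before the start of the RefSeq transcript (build GRCm38.p6), each gene lying on the minus strand: chr6:50566570-50566819 for Cycs, chr5:115348959-115349208 for Cox6a1 and chr7:4753095-4753344 for Cox6b2. Capitals mark matches, on either strand, to the core of the NRF1 motif (GCATGCGC), the cAMP response element (CRE, TGACGTCA) and the ETS core (CCGGAAG), 3 motifs chosen after the sequences had been seen.
Cycs: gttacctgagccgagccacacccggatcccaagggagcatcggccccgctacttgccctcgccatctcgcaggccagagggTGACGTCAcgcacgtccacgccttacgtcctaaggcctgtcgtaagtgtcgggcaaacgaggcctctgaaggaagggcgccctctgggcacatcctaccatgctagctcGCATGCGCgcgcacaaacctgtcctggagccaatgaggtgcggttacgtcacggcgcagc
Cox6a1: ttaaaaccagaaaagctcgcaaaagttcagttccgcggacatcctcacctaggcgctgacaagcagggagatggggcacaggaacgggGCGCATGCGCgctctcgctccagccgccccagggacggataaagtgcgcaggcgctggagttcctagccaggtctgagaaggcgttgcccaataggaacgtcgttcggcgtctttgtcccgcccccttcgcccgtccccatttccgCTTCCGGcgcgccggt
Cox6b2: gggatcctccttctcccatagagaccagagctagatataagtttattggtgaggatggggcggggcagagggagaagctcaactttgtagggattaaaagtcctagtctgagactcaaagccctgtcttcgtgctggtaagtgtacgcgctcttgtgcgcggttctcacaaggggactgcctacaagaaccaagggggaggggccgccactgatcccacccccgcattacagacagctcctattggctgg
The Cycs window holds a CRE match 169 bases and an NRF1 match 60 bases before the start. In Cox6a1 a palindrome matches the NRF1 core on both strands, 162 and 160 bases before the start. An ETS match lies 16 bases before the RefSeq start. The GENCODE bounds of Cox6a1, given below, reach into this window, so by them the ETS match lies inside the gene. The Cox6b2 window holds 0 matches of these letters. Windows were found for 66 of the 84 nuclear members. Among these 66, 16.7% hold the NRF1 core, 7.58% the CRE and 24.2% the ETS core in the windows of 300 bases that run 50 bases past the start, against 3.05%, 2.03% and 9.93% of all 27025 genes with a window. The 31 members higher at 35 weeks with a window held the NRF1 core in 16.1%, the CRE in 3.23% and the ETS core in 32.3%. Of the 5 nuclear members lower at 35 weeks with a window, 2 held the NRF1 core, 2 the CRE and 1 the ETS core. The 27025 genes were not chosen for being expressed in the kidney. A match is a description of the letters and not of binding.

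In complex I, which has the most members, 6 of 39 nuclear genes were higher (15.4%) and 4 lower (10.3%) at 26 weeks. At 35 weeks 14 were higher (35.9%) and 4 lower (10.3%). Of all genes 17.2% were higher and 17.7% lower at 26 weeks, and 15.9% and 16.4% at 35 weeks. The higher genes were small accessory subunits, which surround the catalytic core. Ndufb9 (ENSMUSG00000022354, chr15:58933756-58939488, plus strand), an accessory subunit of the membrane arm, had values at 26 weeks of 492, 523, 525, 547 and 576 in the 5 db/m libraries and from 572 to 659 (median 617) in the 12 db/db Unx libraries, which overlapped, with a log2 difference of 0.21 ± 0.05 (adjusted p 0.000382). At 35 weeks it ran from 426 to 494 (median 445) in the 6 db/m libraries, 610.2 and 635 in db/db Unx replicates 1 and 2, and 565, 522 and 525 in replicates 3, 5 and 6. These groups were apart, and the difference was 0.34 ± 0.05 (adjusted p 3.47e-06). Ndufa7 (ENSMUSG00000041881, chr17:33824572-33838317, plus strand), an accessory subunit of the arm that holds the redox centres, was higher by 0.17 ± 0.05 (adjusted p 0.00619) at 26 weeks and 0.36 ± 0.06 (adjusted p 2.84e-06) at 35 weeks. Its 6 db/m values at 35 weeks reached 152 and its 5 db/db Unx values began at 173. Ndufb7, another membrane arm subunit, was higher by 0.22 and 0.23 (adjusted p 0.00021 and 0.000565). Ndufa5 was higher by 0.18 and 0.35 (adjusted p 0.0149 and 7.05e-05).

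The complex I genes on the lower side included its largest core subunit. Ndufs1 (ENSMUSG00000025968, chr1:63143596-63176833, minus strand) encodes the core protein that carries several iron-sulfur clusters on the way from NADH to ubiquinone. Its values at 35 weeks ran from 301 to 357 (median 318) in the 6 db/m libraries, 285 and 247 in db/db Unx replicates 1 and 2, and 244, 249.5 and 263 in replicates 3, 5 and 6. The groups did not overlap, and the log2 difference was -0.33 ± 0.06 (adjusted p 2.27e-05), or -0.28 (adjusted p 0.00973) without replicates 3, 5 and 6. At 26 weeks it was -0.16 ± 0.05 (adjusted p 0.0102), with a range over the 5 scalings of -0.16 to -0.04, not called under all of them. Ndufa10, an accessory subunit, was lower, at -0.13 and -0.18 (adjusted p 0.0163 and 0.0044), with a sign at 26 weeks that turned under quantile normalization and -0.05 (adjusted p 0.616) at 35 weeks without replicates 3, 5 and 6. Ndufv1, the subunit that binds NADH, had differences of -0.04 and -0.02 and was not called (adjusted p 0.521 and 0.766).

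Ndufa4 (ENSMUSG00000029632, chr6:11900292-11907497, minus strand), long listed with complex I and now placed in complex IV, was lower, while 0 of the 14 nuclear genes counted as complex IV were. Its values at 26 weeks were 791, 809, 837, 863 and 953 in the 5 db/m libraries and from 581 to 656 (median 641) in the 12 db/db Unx libraries. All 12 db/db Unx libraries lay below all 5 db/m libraries, with a log2 difference of -0.42 ± 0.05 (adjusted p 5.33e-09) that ranged over -0.42 to -0.23 under the 5 scalings. At 35 weeks it ran from 589.7 to 707 (median 660.5) in the 6 db/m libraries, 595 and 598 in db/db Unx replicates 1 and 2, and 526, 490.0 and 513 in replicates 3, 5 and 6, and these groups overlapped. The difference there was -0.26 ± 0.06 (adjusted p 0.000286), but -0.12 (adjusted p 0.228) without replicates 3, 5 and 6. Its relative Ndufa4l2, a paralog induced by low oxygen, averaged 2.64 and 2.39 in db/m and db/db Unx at 26 weeks and was not called (adjusted p 0.592 and 0.944). Ndufa1, a small membrane subunit, was lower at 26 weeks, at -0.21 ± 0.05 (adjusted p 0.000986) with groups that did not overlap, while its difference at 35 weeks was -0.0027 (adjusted p 0.98), or 0.13 (adjusted p 0.26) without replicates 3, 5 and 6. The test of that change between the ages gave an adjusted p of 0.206.

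Complex II, the smallest complex and the only one with no mitochondrially encoded subunit, had no higher members as deposited. Sdhb (ENSMUSG00000009863, chr4:140961203-140979193, plus strand), its iron-sulfur subunit, averaged 773 ± 27.6 in db/m against 686 ± 37.5 in db/db Unx at 26 weeks and 686 ± 26.4 and 620.0 ± 62.0 at 35 weeks. The log2 differences were -0.17 ± 0.05 (adjusted p 0.0033) and -0.15 ± 0.05 (adjusted p 0.0263), and both turned to 0.03 under quantile normalization. Sdhc, a membrane anchor, was lower, at -0.12 and -0.14 (adjusted p 0.011 and 0.0133), with a sign that turned at 26 weeks under quantile normalization. The flavoprotein Sdha and the other anchor Sdhd were not called at either age, with adjusted p from 0.122 to 0.462. Without replicates 3, 5 and 6 the 35-week differences of Sdhb and Sdhc were -0.01 (adjusted p 0.953) and -0.08 (adjusted p 0.374). No call of a complex II gene held under every setting. The sign held over the 5 scalings for Sdha at 26 weeks (0.08 to 0.28) and for Sdhc at 35 weeks (-0.14 to -0.02), and turned for the other 6 differences of these 4 genes.

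In complex III, 2 of 9 nuclear members were higher (22.2%, against 17.2% of all genes) and 0 lower (against 17.7%) at 26 weeks. At 35 weeks 4 were higher (44.4%, against 15.9%) and 1 lower (11.1%, against 16.4%). Uqcrq (ENSMUSG00000044894, chr11:53427922-53430831, minus strand), a small subunit next to cytochrome b, had values at 26 weeks of 610.1, 661, 666, 709.9 and 769 in the 5 db/m libraries and from 781 to 928 (median 844) in the 12 db/db Unx libraries. At 35 weeks it ran from 478 to 587 (median 525) in the 6 db/m libraries, 745 and 838 in db/db Unx replicates 1 and 2, and 721, 684 and 667 in replicates 3, 5 and 6. The groups were apart at both ages, and the log2 differences were 0.31 ± 0.05 (adjusted p 9.49e-06) and 0.47 ± 0.06 (adjusted p 6.83e-08). Uqcr11 and Uqcr10, also small subunits, were higher at 35 weeks by 0.26 and 0.30 (adjusted p 0.00115 and 0.000324), and Uqcr11 also at 26 weeks by 0.17 (adjusted p 0.0117). The core protein Uqcrc2 was lower at 35 weeks, at -0.12 ± 0.05 (adjusted p 0.0387), which turned to 0.01 under quantile normalization and was -0.04 (adjusted p 0.741) without replicates 3, 5 and 6. The other core protein Uqcrc1 and the Rieske iron-sulfur protein Uqcrfs1 were not called (adjusted p at 35 weeks 0.976 and 0.0628). The ratio of Uqcrq to Uqcrc2 was 142 ± 13.5% in db/m against 183 ± 15.6% in db/db Unx at 26 weeks, and 114 ± 10.2% and 171 ± 7.98% at 35 weeks. This pair, like those of the other within-library ratios between a higher and a lower gene below, was chosen after their values were seen.

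As deposited, complex IV had the largest share of higher nuclear members of the 5 complexes at both ages. Its 14 nuclear genes leave out Ndufa4, which was lower and is counted with complex I by its name. Of these 14, 5 were higher at 26 weeks (35.7%) and 12 at 35 weeks (85.7%), with 0 lower at either age. Of all genes 17.2% and 15.9% were higher. Cox5b (ENSMUSG00000061518, chr1:36691449-36693681, plus strand), a subunit on the matrix side, had values at 26 weeks of 348, 372, 378, 401 and 419 in the 5 db/m libraries and from 419 to 479 (median 456) in the 12 db/db Unx libraries. Those ranges overlapped, and the log2 difference was 0.24 ± 0.05 (adjusted p 7.44e-05). At 35 weeks it ran from 285 to 321 (median 306) in the 6 db/m libraries, 422 and 435 in db/db Unx replicates 1 and 2, and 396, 363 and 361 in replicates 3, 5 and 6. The groups were apart, with a difference of 0.37 ± 0.05 (adjusted p 5.29e-07), or 0.49 (adjusted p 5.54e-07) without replicates 3, 5 and 6. Cox4i1 (ENSMUSG00000031818, chr8:120668222-120674207, plus strand), the common form of the regulatory subunit that binds ATP, was higher by 0.27 ± 0.05 (adjusted p 1.2e-05) and 0.29 ± 0.05 (adjusted p 2.72e-05). Cox6c was higher by 0.24 and 0.36 (adjusted p 0.000373 and 7.92e-06). Within a library, Cox5b was 49.7 ± 2.90% of Sdhb in db/m against 66.1 ± 2.91% in db/db Unx at 26 weeks, and 44.5 ± 1.79% and 63.9 ± 2.90% at 35 weeks, without overlap.

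Several complex IV subunits exist as a common and a tissue-restricted isoform, and 1 restricted form changed most in relative terms. Cox6b2 (ENSMUSG00000051811, chr7:4751792-4753094, minus strand) is known as the testis form of the subunit that faces cytochrome c. Its values at 26 weeks were 3.16, 4.42, 4.74, 5.40 and 6.24 in the 5 db/m libraries and from 9.69 to 23.4 (median 13.6) in the 12 db/db Unx libraries. At 35 weeks they ran from 3.79 to 5.01 (median 4.38) in the 6 db/m libraries, 16.5 and 10.2 in db/db Unx replicates 1 and 2, and 15.5, 20.1 and 16.5 in replicates 3, 5 and 6. The groups did not overlap at either age, and the log2 differences were 1.41 ± 0.15 (adjusted p 9.3e-10) and 1.60 ± 0.17 (adjusted p 1.32e-09), the largest of any member. The ratio of Cox6b2 to its common counterpart Cox6b1 was 0.628 ± 0.152% in db/m against 1.79 ± 0.453% in db/db Unx at 26 weeks, and 0.726 ± 0.0972% and 2.25 ± 0.634% at 35 weeks. Cox6b1 was higher by 0.21 at 35 weeks (adjusted p 0.00225) and not called at 26 weeks (0.116). Cox6a1 (ENSMUSG00000041697, chr5:115345642-115348981, minus strand), the common form of its subunit, was higher by 0.23 ± 0.05 (adjusted p 0.000268) and 0.34 ± 0.06 (adjusted p 8.49e-06). The heart and muscle forms Cox6a2 and Cox7a1 had mean values of at most 1.18 and 11.9 in any group and were not called. Of 5 skeletal muscle markers 2 were in the table, and they summed to at most 2.22 in any library. Cox7a2, Cox7a2l and Cox8a were each called at 35 weeks, higher by 0.19, 0.18 and 0.15, and not at 26 weeks. Without replicates 3, 5 and 6, Cox6b1, Cox7a2 and Cox8a were higher by 0.34 (adjusted p 0.000207), 0.30 (adjusted p 0.0031) and 0.25 (adjusted p 0.00828).

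**Figure D2:**
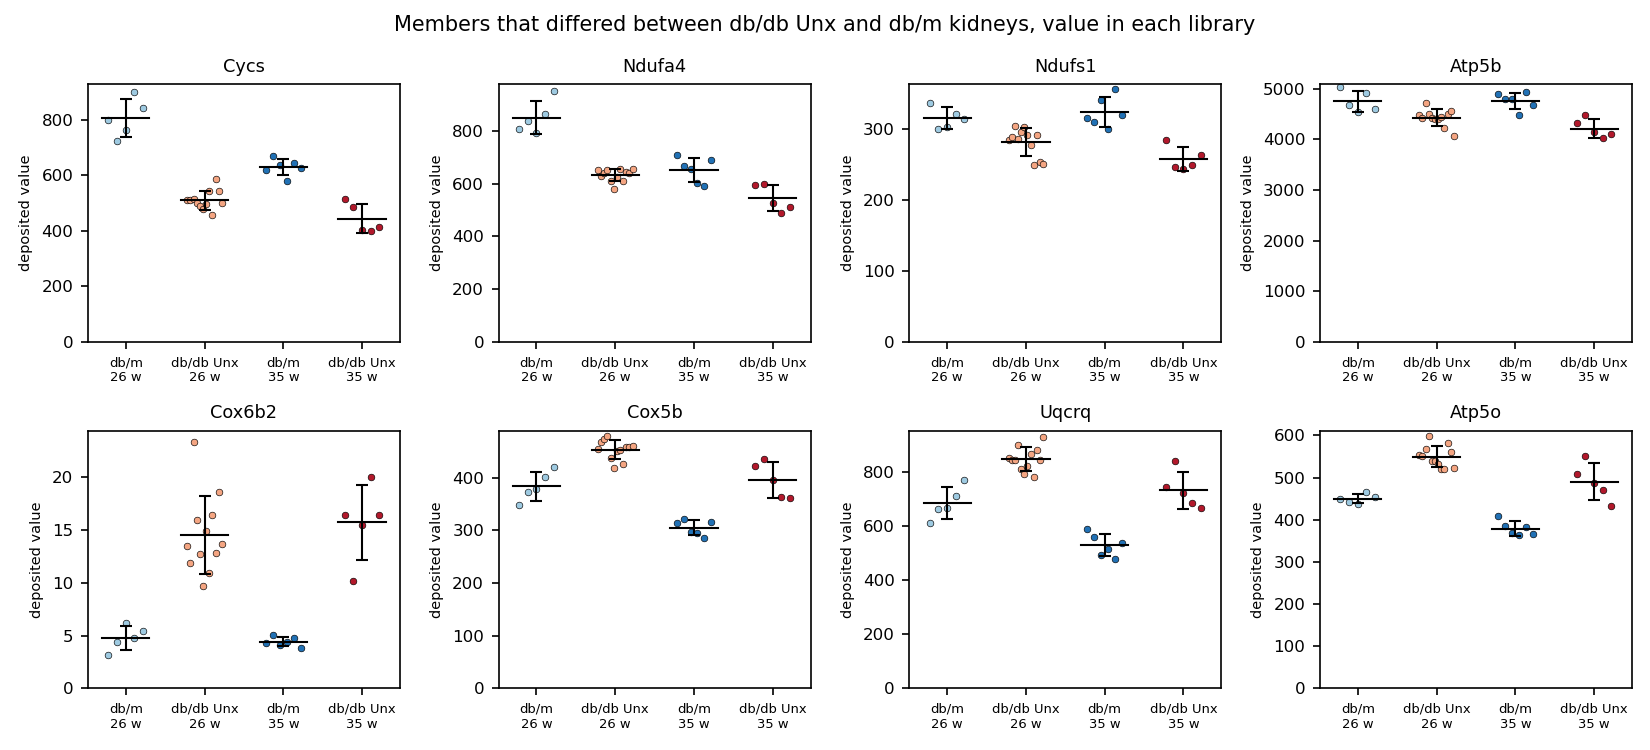
Deposited value (vertical axis, from 0) of 8 members in each library, by group; points are libraries, bars the mean and SD (n = 5, 12, 6 and 5 from left to right). Cycs, Cox6b2, Uqcrq and Atp5o do not overlap between db/db Unx and db/m at either age, and the Cycs values of db/db Unx lie under those of db/m; the lower Atp5b values turned higher under quantile normalization.

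In complex V, 3 of 17 nuclear members were higher (17.6%, against 17.2% of all genes) and 2 lower (11.8%, against 17.7%) at 26 weeks. At 35 weeks 8 were higher (47.1%, against 15.9%) and 1 lower (5.88%, against 16.4%). Atp5o (ENSMUSG00000022956, chr16:91925214-91931687, minus strand) encodes the protein that ties the catalytic head to the peripheral stalk. At 26 weeks the values of Atp5o were 438, 442, 449, 454 and 465 in the 5 db/m libraries and from 519.7 to 599 (median 546) in the 12 db/db Unx libraries. At 35 weeks it ran from 365 to 408 (median 375) in the 6 db/m libraries, 508 and 551 in db/db Unx replicates 1 and 2, and 487, 471 and 431 in replicates 3, 5 and 6. The groups were apart at both ages, with log2 differences of 0.29 ± 0.04 (adjusted p 2.1e-06) and 0.37 ± 0.05 (adjusted p 2.8e-07). Atp5b (ENSMUSG00000025393, chr10:128083273-128090391, plus strand), the catalytic beta subunit, averaged 4758 ± 208 in db/m against 4431 ± 162 in db/db Unx at 26 weeks and 4764 ± 159 and 4216 ± 181 at 35 weeks. It was lower, at -0.10 ± 0.03 (adjusted p 0.0198) and -0.18 ± 0.04 (adjusted p 0.000556), but higher by 0.28 and 0.29 under quantile normalization, and -0.11 (adjusted p 0.131) at 35 weeks without replicates 3, 5 and 6. As deposited, the 5 db/db Unx values of 35 weeks lay below all 6 db/m values. Measured within a library, Atp5o was 9.46 ± 0.353% of Atp5b in db/m against 12.4 ± 0.441% in db/db Unx at 26 weeks, and 7.95 ± 0.252% and 11.6 ± 0.655% at 35 weeks, and the groups did not overlap. Atp5j, coupling factor 6, was lower at 26 weeks, at -0.15 ± 0.05 (adjusted p 0.0134), a difference that turned to 0.01 under quantile normalization.

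The rotating ring of ATP synthase is built from 1 protein that 3 genes, Atp5g1, Atp5g2 and Atp5g3, encode with different targeting peptides. As deposited, Atp5g1 alone was called: it was higher by 0.22 ± 0.05 (adjusted p 0.000621) and 0.23 ± 0.06 (adjusted p 0.00138). Atp5g2 averaged 74.8 ± 5.67 in db/m at 26 weeks and was not called (adjusted p 0.691 and 0.805). Atp5g3 averaged 1208 ± 68.2 there and had differences of 0.03 and 0.10 (adjusted p 0.696 and 0.182), and 0.26 (adjusted p 0.00718) at 35 weeks without replicates 3, 5 and 6. Over the 5 scalings the Atp5g3 differences ranged over 0.03 to 0.34 and 0.10 to 0.33, and the smallest adjusted p of each age was 4.49e-07 and 1.12e-05. The ratio of Atp5g1 to Atp5g3 was 47.9 ± 1.90% in db/m against 54.6 ± 3.03% in db/db Unx at 26 weeks, and 48.2 ± 2.03% and 52.7 ± 2.65% at 35 weeks, and the groups overlapped. Atp5e, the epsilon subunit of the central stalk, was higher by 0.13 and 0.20 (adjusted p 0.0372 and 0.00781), and Atp5j2, the f subunit, by 0.22 at 35 weeks (adjusted p 0.00625). Without replicates 3, 5 and 6 these 35-week differences were 0.30 (adjusted p 0.00444) and 0.36 (adjusted p 0.000824). Many of these nuclear genes have processed pseudogenes with nearly the same sequence, and how the authors' counting split such reads is not given in the sources used here.

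As deposited, none of the 13 mitochondrially encoded genes was called between db/db Unx and db/m at 26 weeks, where 34.9% of all genes were. An unadjusted p below 0.05 was given by limma for 1 of them, and for 5872 of all 13495 genes. Quantile normalization called 5 of them higher at that age (mt-Atp6, mt-Co3, mt-Nd1, mt-Nd4 and mt-Nd5), and each scaling to equal totals called 1, mt-Co1. Of all genes, quantile normalization called 2346 higher there, and the scalings to equal totals 3587 or 3645. At 35 weeks, where 16.4% of all genes were lower, 1 was called lower as deposited, mt-Cytb, the cytochrome b of complex III. Its values ran from 7207 to 7831 (median 7425) in the 6 db/m libraries, 7450 and 7751 in db/db Unx replicates 1 and 2, and 6575, 5450 and 5960 in replicates 3, 5 and 6. Its log2 difference was -0.18 ± 0.07 (adjusted p 0.0442), and 0.03 (adjusted p 0.864) without replicates 3, 5 and 6. The lowest values were those of the 3 libraries that stand apart. None of the other 4 scalings called mt-Cytb at 35 weeks: quantile normalization called mt-Co3 and mt-Nd1 higher, the scalings to equal totals called mt-Co1 higher, and median-of-ratios scaling called 0 of the 13. Of all genes, quantile normalization called 2154 higher at that age, the scalings to equal totals 2787 or 2785, and median-of-ratios scaling 2290. Differences at 26 weeks ranged from -0.14 for mt-Co2 to 0.10 for mt-Co1, both core subunits of complex IV, with adjusted p of 0.0667 and 0.125. At 35 weeks mt-Co1 differed by 0.08 (adjusted p 0.283), and without replicates 3, 5 and 6 by 0.23 (adjusted p 0.0142). Quantile normalization gave mt-Co3, the other core subunit, 0.36 and 0.37 at the 2 ages, where the values as deposited gave -0.08 and -0.05, the latter 0.14 (adjusted p 0.212) without those replicates. The complex I genes mt-Nd1, mt-Nd2, mt-Nd3, mt-Nd4, mt-Nd4l, mt-Nd5 and mt-Nd6 had differences at 35 weeks of -0.05, 0.03, 0.0032, -0.17, -0.14, -0.15 and -0.0021, in that order. Without replicates 3, 5 and 6 these 7 differences were all positive, at 0.16, 0.19, 0.16, 0.04, 0.04, 0.03 and 0.26, with adjusted p of 0.145 or more. mt-Atp6 and mt-Atp8, of the proton channel of ATP synthase, had -0.09 and -0.16, and 0.05 (adjusted p 0.712) and -0.04 (adjusted p 0.875) without those replicates. Of all 13 genes, 10 had a negative difference at 35 weeks as deposited and 1, mt-Atp8, without those replicates. The mt-Atp8 and mt-Atp6 frames overlap, as do mt-Nd4l and mt-Nd4, and mt-Nd6 lies opposite other transcripts on the second strand, so reads of these pairs may have been shared.

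The mitochondrially encoded transcripts made up 4.29 ± 0.346% of the library total in db/m against 4.53 ± 0.256% in db/db Unx at 26 weeks (mean ± SD). At 35 weeks the shares were 3.97 ± 0.173% and 4.01 ± 0.464%. In the last group they were 4.50% and 4.46% in replicates 1 and 2 and 3.91%, 3.43% and 3.73% in replicates 3, 5 and 6, the libraries with high macrophage and low proximal tubule marker sums. Replicate 12 of db/db Unx at 26 weeks, with a proximal tubule sum as low (29163) but a macrophage sum of 226, had a share of 4.56%. Whether these shares vary with the marker sums was not tested. The nuclear members together made up 4.15 ± 0.119% and 4.49 ± 0.0964% at 26 weeks, where the groups did not overlap, and 3.80 ± 0.106% and 4.16 ± 0.260% at 35 weeks, where they did. The totals that divide these shares were lower in db/db Unx at 26 weeks, at 917330 to 956393, against 976214 to 1018934 in db/m. As deposited, the sum of all nuclear members differed by only 1.17% and 4.26% at the 2 ages. That of all mitochondrially encoded members differed by -1.18% and -3.76%, and all of these sums overlapped.

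Summed over members, complex IV differed most between the groups. The sum of its 14 nuclear genes averaged 7304 ± 458 in db/m against 8132 ± 322 in db/db Unx at 26 weeks, 11.3% more with overlapping groups. At 35 weeks it averaged 6005 ± 341 and 7198 ± 631, 19.9% more, and the groups were apart. This sum leaves out Ndufa4, which was lower and enters the complex I sum by its name. The nuclear complex I sum differed by -1.17% and 4.66% at the 2 ages, that of complex II by -3.83% and -5.93%, that of complex III by 4.70% and 6.70%, and that of complex V by -0.382% and -0.471%, all with overlap. Under quantile normalization the nuclear sums of all 5 complexes were higher in db/db Unx at both ages. The mitochondrially encoded sums of complexes I, III, IV and V differed by -1.95%, -2.30%, 0.240% and -2.61% at 26 weeks and by -5.40%, -11.0%, 1.56% and -6.19% at 35 weeks, again with overlap. Quantile normalization turned each of these lower sums higher except that of complex III at 35 weeks, and leaving out replicates 3, 5 and 6 turned all 3 lower ones of 35 weeks higher. Per kilobase of transcript, the median level of nuclear members in db/m at 26 weeks was 343 for complex I, 399.6 for complex II, 616 for complex III, 704 for complex V and 789 for complex IV. On the same scale Atp5b was the highest nuclear member at 2483 and mt-Co3 and mt-Cytb the highest mitochondrial ones at 7060 and 7056.

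**Figure D3:**
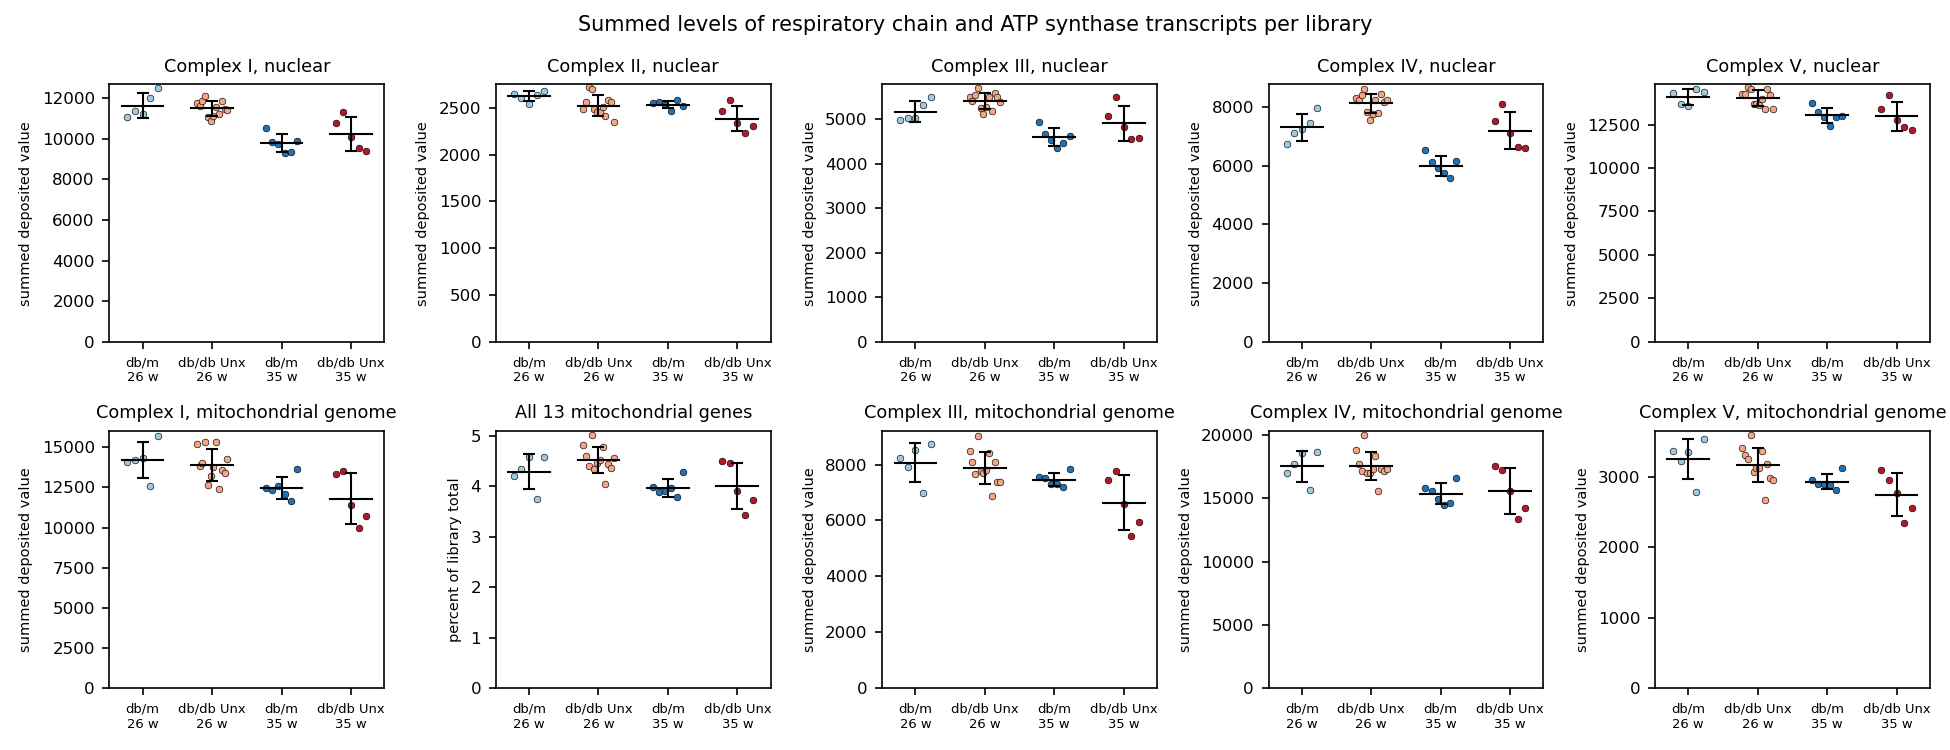
Summed deposited values per library of the nuclear members of each complex (top) and of the mitochondrially encoded members (bottom; complex II has none, and that panel shows all 13 as a percent of the library total), by group; points are libraries, bars the mean and SD. The complex IV nuclear sums of db/db Unx, which leave out Ndufa4 by its name, lie above all db/m sums at 35 weeks. The sums of the other complexes overlap.

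The second question was how the members differ between 26 and 35 weeks within each genotype. Members were lower at 35 weeks: 67 of 97 in db/m (69.1%, where 4.68% of all genes were lower) and 62 of 97 in db/db Unx (63.9%, where 6.14% were), with 0 higher in either. Of all genes 2.73% (db/m) and 5.16% (db/db Unx) were higher, and 7.4% and 11.3% were called in either direction. Under quantile normalization and both scalings to equal totals, 1 member was called higher in db/m, as were 308, 684 and 648 of all genes. In db/m the values of 55 members lay entirely below those at 26 weeks, which 3.49% of all genes did, and those of 1, Sdha, lay above them, as did 1.5% of all genes. In db/db Unx the values of 2 members, Ndufb7 and Uqcr11, lay entirely below, against 0.86% of all genes, and 0 lay entirely above, against 0.482%. Both genotypes shared 49 of the members called lower, 73.1% of the db/m list and 79.0% of the db/db Unx list. For comparison, the genotypes shared 277 of all genes called lower, from a db/m list of 631 and a db/db Unx list of 829. The median log2 difference of nuclear members was -0.26 in db/m against -0.16 in db/db Unx, and that of mitochondrial members -0.19 and -0.26, beside 0.01 and 0.0047 over all genes. Atp5k, the small e subunit of ATP synthase, averaged 137 ± 15.3 at 26 and 98.3 ± 7.81 at 35 weeks in db/m, a difference of -0.47 ± 0.07 (adjusted p 0.000166). Ndufa13, an accessory subunit of complex I, was lower, at -0.41 ± 0.06 (adjusted p 0.000131) in db/m against -0.26 ± 0.05 (adjusted p 0.00151) in db/db Unx. Ndufb7 and Atp5e were lower in db/db Unx, at -0.29 and -0.29 (adjusted p 8.54e-05 and 0.000483) and in db/m, at -0.31 and -0.35 (adjusted p 0.000335 and 0.000316).

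The db/db Unx age counts varied more with single libraries than the db/m ones, for members and for all genes. Leaving out db/db Unx replicate 6, 5 or 3 of 35 weeks gave 21, 23 or 44 members lower, and leaving out replicate 2 gave 80. Of all genes these fits called 386, 344, 591 and 949 lower, against 829 with every library. Leaving out replicates 3, 5 and 6 together left only replicates 1 and 2 in the group. That fit gave 0 members lower, and 7 of all genes. In db/m the count stayed between 54 and 70 when any 1 library was left out, with 386 to 711 of all genes. No group of 3 libraries was left out in db/m. Under all 5 scalings 52 of the 67 members lower in db/m, and 32 of the 62 in db/db Unx, were called. Scaling to equal totals moved the share of called genes that were higher from 36.8% to 63.7% in db/m and from 45.7% to 60.6% in db/db Unx.

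The age differences varied with the length of the coding sequence. Of the 52 nuclear members with fewer than 500 coding bases, 48 were lower at 35 weeks in db/m and 35 were in db/db Unx, with median log2 differences of -0.31 and -0.19. Of the 4 members with 1500 coding bases or more (Ndufs1, Sdha, Atp5a1 and Atp5b), 0 were called in either genotype. Other nuclear coding genes, with a mean at or above the members' 10th percentile, showed the same order: 118 of 197 with fewer than 500 coding bases were lower in db/m and 86 were in db/db Unx, against 1 and 45 of 332 with 1500 to under 2500. Among 82 genes of cytosolic ribosomal proteins, which are also short, 71 were lower in db/m and 18 were in db/db Unx. As a description across genes, which share their libraries, Pearson's r between log2 coding length and the db/m age difference was 0.79 over 83 members and 0.54 over 1480 other genes of like level. Among members, length moved with the disease comparison at 35 weeks too: 31 of the 52 short members were higher and 2 lower, while 0 of the 11 members of 1000 bases or more were higher and 5 were lower. Of the other genes of like level with fewer than 500 coding bases, 55 of 197 were higher and 44 lower there, and of the 332 with 1500 to under 2500, 61 were higher and 173 lower. Across genes, r between log2 coding length and this difference was -0.43 over the 83 members and -0.06 over the 1480 other genes. Ribosomal protein genes were higher in 46 of 82 cases there and lower in 1, and at 26 weeks higher in 5 and lower in 9. The part of transcript length in these results was not tested.

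**Figure D4:**
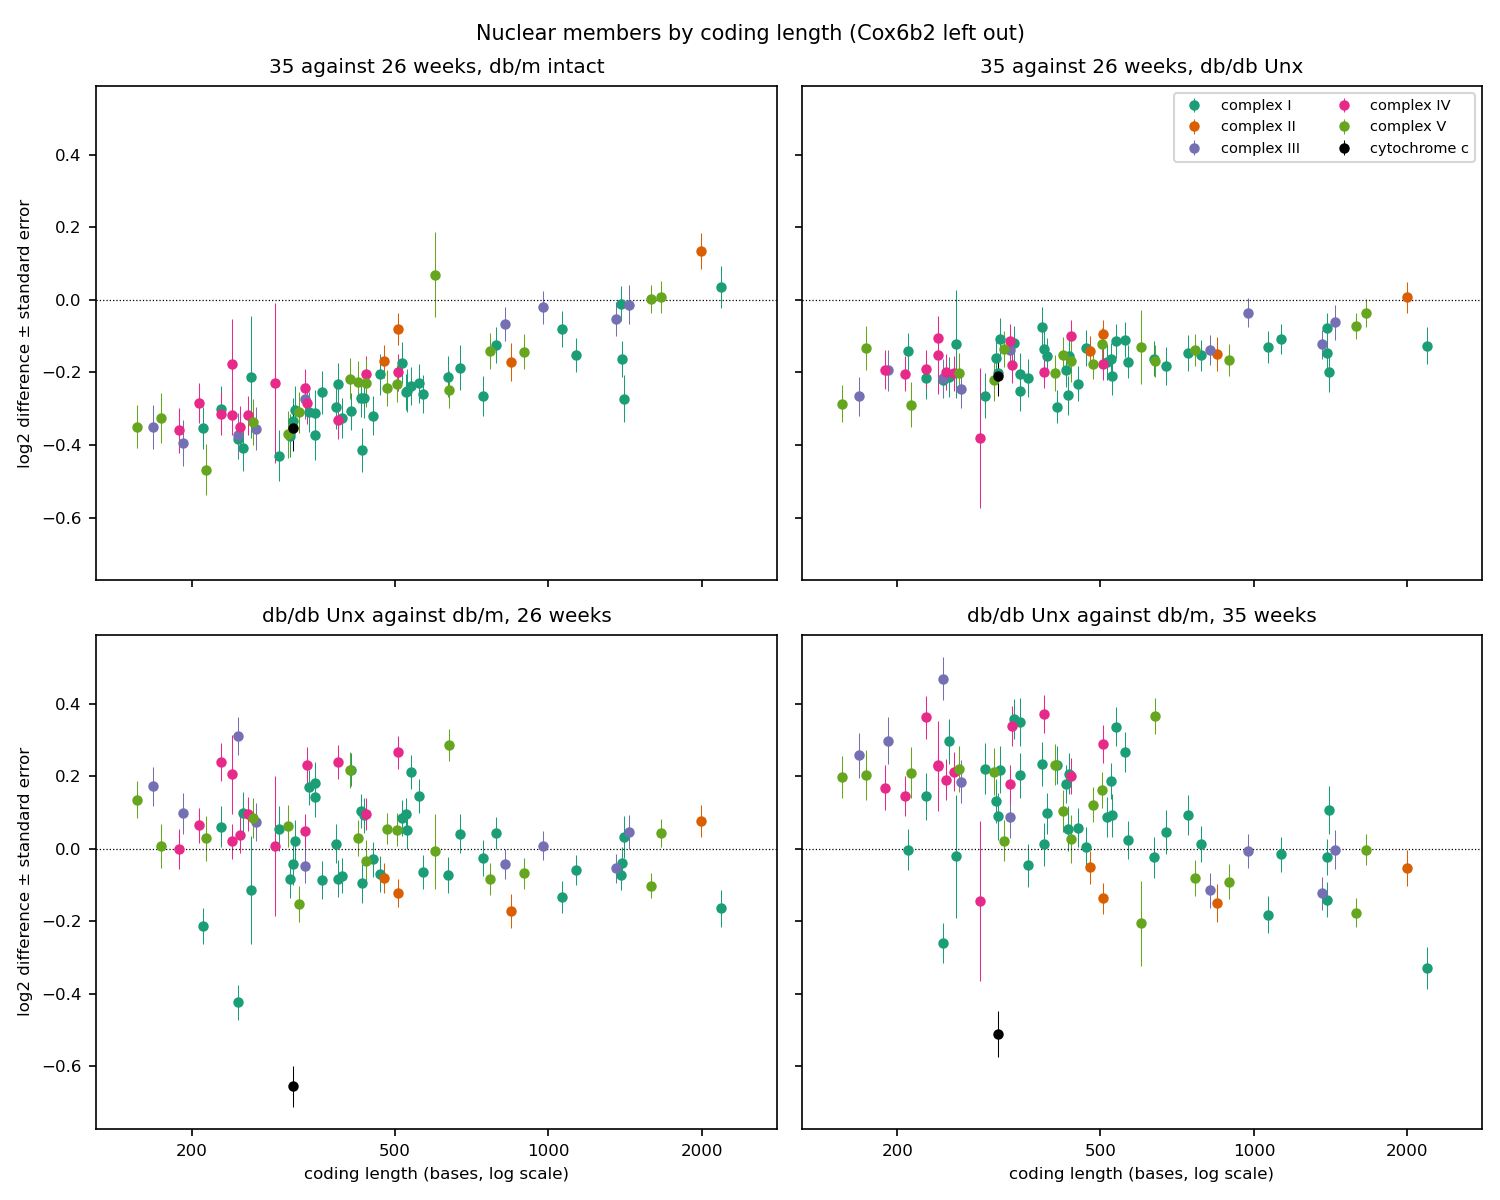
Log2 difference ± standard error of each nuclear member with a coding sequence against coding length in bases (log scale), for age in db/m and db/db Unx (top) and for disease at 26 and 35 weeks (bottom); points are genes, coloured by complex, and Cox6b2 is left out for its size. The db/m age differences are lowest, with a median of -0.31, for genes under 500 bases and lie near 0 for the longest.

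No member was called in the test of whether the disease difference changed between the ages, where 0.393% of all genes were called higher and 0.156% lower. limma gave an unadjusted p below 0.05 for 14 of the 97, and for 1699 of all 13495 genes. The disease difference was the more positive at 35 weeks for 73 of 97 members, 69 of them nuclear, and among all genes for 6607 of 13495. Of the members whose 2 disease differences had opposite signs, 3 were called at either age: Atp5j, Cox7c and Ndufb1-ps. In opposite directions 0 members were called, and 12 of all 13495 genes. Cox7c, a small subunit of complex IV, was higher at 35 weeks by 0.17 ± 0.06 (adjusted p 0.0364), or 0.31 (adjusted p 0.00399) without replicates 3, 5 and 6, against -0.00016 at 26 weeks.

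Genes that build or serve the chain were counted from lists beside it, with 34.9% of all genes called in either direction at 26 weeks and 32.3% at 35 weeks. Of 47 assembly factors, 1 was higher and 17 lower at 26 weeks, and 1 higher and 10 lower at 35 weeks. Acad9, which assembles complex I, was lower, at -0.72 and -0.74, and Cox15, which makes the haem of complex IV, at -0.59 and -0.79. Uqcc2, an assembly factor of complex III, was higher by 0.46 and 0.68. The lists' counts varied with scaling: under equal totals 5 assembly factors were higher and 7 lower at 26 weeks, and without replicates 3, 5 and 6 only 1 was higher and 2 lower at 35 weeks. The 3 named assembly factors kept their calls under all 5 scalings and without those replicates, and the largest of their 6 limma adjusted p-values was 1.62e-07. Of 78 mitochondrial ribosomal protein genes, 5 were higher and 27 lower at 26 weeks, and 7 higher and 17 lower at 35 weeks. Mrpl50 was lower, at -0.43 and -0.53. Under equal totals the ribosomal counts were 8 higher and 13 lower at 26 weeks and 14 and 10 at 35 weeks, so the direction of this list at 35 weeks turned, and without replicates 3, 5 and 6 they were 6 and 3. In ubiquinone synthesis, 1 of 11 genes was higher and 6 lower at 26 weeks, and 0 and 4 at 35 weeks, and equal totals gave 2 and 3 at 26 weeks. Pdss1, which starts the side chain of ubiquinone, was lower, at -0.89 and -0.82. Coq8a, a kinase-like protein of the same route, was higher by 0.30 at 26 weeks, and Coq3, a methyltransferase, was lower, at -0.58 at 35 weeks.

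Of 16 genes for mitochondrial DNA maintenance and transcription, 1 was higher and 2 lower at 26 weeks, and 0 and 5 at 35 weeks. Equal totals gave 4 higher and 2 lower of these 16 at 26 weeks, and without replicates 3, 5 and 6 0 were higher and 1 lower at 35 weeks. Tfam, which packages mitochondrial DNA, was lower at 35 weeks, at -0.32, and at -0.18 (adjusted p 0.26) without replicates 3, 5 and 6. Mterf3, a terminator-like factor, was lower, at -0.41 and -0.45. Of 11 regulators of mitochondrial biogenesis, 2 were higher and 0 lower at 26 weeks, and 2 higher and 1 lower at 35 weeks. Ppargc1a, the coactivator PGC-1alpha, was higher by 0.37 and 0.51, and the nuclear receptor Esrrb by 0.55 and 0.67, the latter 0.74 (adjusted p 0.0692) without those replicates. Gabpa, an ETS factor, was lower at 35 weeks, at -0.33, a call held in 3 of 5 scalings and -0.34 (adjusted p 0.155) without them. Of 13 citric acid cycle genes, 1 was higher and 4 lower at 26 weeks, and 0 and 4 at 35 weeks, with Dld, a subunit of the dehydrogenases, lower, at -0.23 and -0.32. Quantile normalization gave 8 citric acid cycle genes higher and 0 lower at 26 weeks, with Dld no longer called, and 5 and 2 at 35 weeks, so this list's direction turned with scaling, and without replicates 3, 5 and 6 the 35-week counts were 0 and 2. Of 8 other donors of electrons to ubiquinone, 2 were higher and 2 lower at 26 weeks, and 1 and 3 at 35 weeks, where equal totals gave 4 and 2 and leaving out those replicates 2 and 1. Prodh, proline dehydrogenase, was higher by 0.68 and 0.40, and Etfa, which takes electrons from fatty acid oxidation, lower, at -0.26 and -0.34. Of 5 carriers and uncoupling proteins, 2 were higher at 26 weeks, and 4 were higher and 1 lower at 35 weeks (3 and 0 without those replicates). Ucp2, an uncoupling protein relative also found in macrophages, was higher by 1.18 and 1.54. Slc25a4, an ADP/ATP exchanger, was higher by 0.29 and 0.32.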

How the data were processed

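Bulk RNA-seq values of 28 kidney libraries were used. Per the labels' protocols, TRIzol and RNeasy reagents gave the RNA, and a Nextera XT kit the libraries. Per the submitters' processing notes, DRAGEN and the build GRCm38 (mm10) were used. The deposited signal values are scaled by the authors by a method, and with a DRAGEN version and annotation, not given in the sources used here. Of low values, 89.8% to 92.4% lay within 0.1 of a whole multiple of 1 step per library, which gave the estimated depth; no count model was run. Symbols, coordinates and lengths came from GENCODE M21 (GRCm38), which named 14834 of 14845 identifiers, and promoter windows from RefSeq.

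Log2(value + 1) of 13495 genes was fitted with limma 3.58.1 (R 4.3.3), with 1 mean per group, a mean-variance trend and robust moderation. Tests were two-sided with Benjamini-Hochberg adjustment over all genes, tested on simulated data. Summaries used Python 3.11.15. Alternatives were other scalings, pseudocounts and filters, plain moderation, a replicate block, only the groups compared, and each library left out. Members and lists were chosen with earlier results of these data known. Named members were all mitochondrial genes, isoform families, complex II, Cycs and Cyc1, and per complex and direction the 3 calls with the smallest adjusted p. From pathway lists they were the 2 smallest. Ndufv1, Uqcrc1, Uqcrfs1 and Atp5a1 were named after their values were seen.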

Additional observations from a re-analysis of the deposited data

Results flagged for a closer look

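In 6 of 201 checks of a group for a sample far from the others, Dixon's test set 1 library apart at its 95% critical value, and chance flags about 1 in 20 such groups. Among db/m libraries of 35 weeks, replicate 5 had Atp5e at 212, below the other 5 at 241 to 253. In that group replicate 1 had Cox4i1 at 1405, above the others at 1168 to 1253, and Ndufa5 at 163.2, above 138 to 147. Among db/m libraries of 26 weeks, replicate 1 had Ndufa7 at 161.8, below 182.5 to 189. In replicate 4 of that group, Cox6a2 was at 2.809, above 0.658 to 0.922, and the ratio of summed mitochondrially encoded to nuclear members was 0.8868, below 1.05 to 1.11. All 6 lie in control groups, and the 12 db/db Unx libraries of 26 weeks are too many for this test.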

How the results depend on the processing

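With any 1 library left out, members higher in db/db Unx numbered 11 to 18 at 26 weeks (11 without db/m replicate 1) and 31 to 41 at 35 weeks, and members lower 8 to 10 and 6 to 14. Members lower with age numbered 21 to 80 in db/db Unx and 54 to 70 in db/m, and 0 were higher. Of all genes 344 to 949 and 386 to 711 were lower. The difference between ages stayed at 0 calls. The nuclear medians ran 0.01 to 0.05 and 0.07 to 0.14, and the mitochondrial ones -0.10 to -0.0019 and -0.14 to -0.03. Ratios of summed levels, db/db Unx to db/m, ran at 26 and 35 weeks 0.977 to 1.01 and 1.02 to 1.07 for nuclear complex I, 0.954 to 0.968 and 0.921 to 0.956 for II, 1.04 to 1.06 and 1.03 to 1.09 for III, 1.09 to 1.14 and 1.16 to 1.22 for IV and 0.987 to 1.00 and 0.972 to 1.01 for V. The mitochondrial ratios ran 0.953 to 1.01 and 0.911 to 0.982 for complex I, 0.945 to 0.998 and 0.852 to 0.929 for III, 0.977 to 1.02 and 0.984 to 1.05 for IV and 0.940 to 0.995 and 0.908 to 0.972 for V.

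Under quantile normalization 61 members were higher and 2 lower at 26 weeks, 65 and 2 at 35 weeks, 33 lower with age in db/db Unx, and 1 higher with age in db/m. Of all genes 2346 were higher and 2243 lower at 26 weeks, and 2154 and 2204 at 35 weeks. With age in db/db Unx, 880 of all genes were lower. The cause of these changes was not tested. The medians were 0.18 and 0.23 for nuclear and 0.14 and 0.087 for mitochondrial members. Summed nuclear ratios at 26 and 35 weeks were 1.09 and 1.14 for complex I, 1.10 and 1.06 for II, 1.18 and 1.19 for III, 1.29 and 1.36 for IV, and 1.19 and 1.19 for V. The mitochondrial ratios were 1.17 and 1.11 for complex I, 1.08 for III at 26 weeks, 1.11 and 1.12 for IV, and 1.10 and 1.06 for V. Among differences called before or after this scaling, those that turned higher at 26 weeks were Atp5b 0.28, Atp5j 0.012, Cox7c 0.17, Ndufa10 0.015, Sdhb 0.031, Sdhc 0.017, Sdhd 0.11, Uqcrc2 0.11, mt-Atp6 0.15, mt-Co3 0.36, mt-Nd4 0.17 and mt-Nd5 0.14. At 35 weeks they were Atp5b 0.29, Cyc1 0.18, Sdhb 0.032, Sdhd 0.13, Uqcrc2 0.011, mt-Co3 0.37 and mt-Nd1 0.26. Over both ages together, 15 other differences, never called in these 2 fits, changed sign.

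Scaling to equal totals, or to equal totals of nuclear genes, gave 45 higher members at 26 weeks under both, 3 or 2 lower, 4 lower at 35 weeks under both, and 1 higher with age in db/m under both. Of all genes 3587 or 3645 were higher and 1647 or 1630 lower at 26 weeks, and 1683 or 1675 lower at 35 weeks. The nuclear median at 26 weeks was 0.13 or 0.13. Summed nuclear ratios at 26 weeks were 1.06 or 1.06 for complex I, 1.03 or 1.03 for II (0.987 or 0.988 at 35 weeks), 1.12 or 1.12 for III, 1.19 or 1.19 for IV and 1.07 or 1.07 for V. Under nuclear totals mitochondrial complex IV was 1.07.

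Leaving out db/db Unx replicates 3, 5 and 6 of 35 weeks, chosen after seeing the data, gave 2 lower members at 35 weeks and 0 lower with age. The medians were 0.24 and 0.11, and mt-Cytb was at 0.027. Of all genes 1275 were lower at 35 weeks and 7 were lower with age in db/db Unx in this fit. Its summed nuclear ratios at 35 weeks were 1.13, 0.995, 1.15, 1.30 and 1.06 for complexes I to V, and its mitochondrial ratios 1.08, 1.02, 1.13 and 1.03 for I, III, IV and V. With only the groups compared, 5 members were lower at 35 weeks, as were 2126 of all genes. Replicate numbers did not pair the samples: over 20 same-numbered pairs the correlation of deviations was -0.13 to 0.08, and 2 correlated best with their own number. The fit with a replicate block called 4 members lower at 26 weeks and 16 lower with age in db/db Unx, and 1998 and 255 of all genes. Pseudocounts, filters and plain moderation moved no count by over 1.5 times. For members named singly, 4074 results kept direction and side of the threshold over all settings, 141 without a call changed sign, 107 lost and 54 gained a call, and 20 turned with a call before or after.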
